A study of Mus musculus with 6 samples.

Results

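Interleukin-10 (IL-10) and the 2 chains of its receptor are described here in mouse Naive, Th17 and Th1 cells. The members are the genes *Il10*, *Il10ra* and *Il10rb*, taken by symbol, which are 3 of the 24223 genes counted, and all 3 were among the 13607 genes tested. The set was chosen by the expression of *Il10* and *Il10ra*, which separate Th1 from Th17 in these same libraries, so that their levels and fold changes are a description without a test. *Il10rb* played no part in that choice and was tested in each comparison.

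IL-10 is a cytokine that dampens inflammation, and T helper cells can release it alongside the cytokines that define them. It binds IL-10Rα, the chain encoded by *Il10ra*, and signals once IL-10Rβ, encoded by *Il10rb*, joins the complex. The kinases JAK1 and TYK2 then activate STAT3. IL-10Rα serves IL-10 alone, whereas IL-10Rβ is shared with the receptors for IL-22 and the type III interferons.

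RNA-Seq was performed on 6 libraries, 2 biological replicates each of Naive, Th17 and Th1. Naive were CD4+CD44- T cells isolated by kit from pooled lymph nodes and spleens of C57BL/6 mice 1 to 2 months of age, and they are the starting cells of both cultures. Th1 were stimulated through CD3 and CD28 with IL-12, IL-2 and an antibody against IL-4. Th17, stimulated in the same way, received TGF-β, IL-6, IL-1β and IL-23 with antibodies against IL-4 and IFN-γ, and cultured cells were collected on the fifth day. The Th17 condition thus differed from the Th1 condition in several cytokines and antibodies at once, and the Naive cells were not kept in culture, so that effects of activation, time and single cytokines cannot be told apart.

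The reads counted on genes ranged from 17742158 to 69080017 per library, and replicate 1 was the deeper library of each cell type. Values are CPM, the counts of a gene as a rate of the TMM-scaled library total, unless stated otherwise. All 8 T cell markers examined were above 1 CPM in every library. Markers of other cells were also present. The CPM of 8 neutrophil genes summed to 2882 and 2778 in the Th17 replicates, where all 8 were above 1 CPM. The sum was 27.3 and 39.4 in Th1 and 310.2 and 189 in Naive. In Naive it was mostly *Mpo* (250.7 and 159 CPM) and *Elane* (57.3 and 29.6 CPM), with the other genes below 1 CPM. *S100a8*, *S100a9*, *Ltf*, *Camp* and *Ngp* were higher in Th1 than in Naive. In bulk RNA, a gene expressed by fewer cells cannot be told apart from a gene with less RNA in each cell.

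*Il10* lies on the plus strand of chromosome 1 from 131019845 to 131024974 in GRCm38, and its single annotated transcript has 5 exons. The Naive libraries held 0.235 and 0.347 CPM of *Il10*, from 16 and 7 reads, with exact Poisson 95% intervals of 0.134 to 0.381 and 0.139 to 0.714 CPM that cover counting error only. In Th17 the level was 3.55 and 1.41 CPM, from 232 and 25 reads. In Th1 it was 26.2 and 16.1 CPM, from 1694 and 255 reads. Each Th1 library was above each Th17 library, which in turn was above each Naive library, so the order Naive, Th17, Th1 held without overlap.

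The group means of *Il10* were 21.2 ± 7.13 CPM in Th1, 2.48 ± 1.51 in Th17 and 0.291 ± 0.0790 in Naive (SD, n = 2 each). The fitted log2 fold change (log2FC) of *Il10* was 3.20 in Th17 (standard error 0.58) and 6.25 in Th1 (standard error 0.63) compared with Naive. Between Th1 and Th17 it was 3.06 with a standard error of 0.52, about 8.31-fold. The replicates differed in both effector cell types. Replicate 1 held 2.51 times the CPM of replicate 2 in Th17 and 1.63 times in Th1, but 0.677 times in Naive. Without Th17 replicate 1, the log2FC of *Il10* was 2.35 in Th17 compared with Naive and 3.90 in Th1 compared with Th17. Without Th17 replicate 2, these were 3.67 and 2.59.

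*Il10ra* lies on the minus strand of chromosome 9 from 45253837 to 45269149 and has 3 annotated transcripts. Its level was 85.4 and 118 CPM in Th1 and 13.1 and 12.5 CPM in Th17. The Naive libraries stood between them at 31.8 and 39.6 CPM. No library of a cell type overlapped with those of another, and the order was Th17, Naive, Th1. The ligand and its specific receptor chain were therefore both highest in Th1, but their lowest groups differed, being Naive for *Il10* and Th17 for *Il10ra*.

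The means of *Il10ra* were 101.8 ± 23.2 CPM in Th1, 12.8 ± 0.432 in Th17 and 35.7 ± 5.53 in Naive (SD, n = 2 each). Compared with Naive, the fitted log2FC of *Il10ra* was -1.48 in Th17 (standard error 0.28) and 1.51 in Th1 (standard error 0.28). The departures from Naive were thus of like size and opposite sign. From Th17 to Th1 the log2FC was 2.99 (standard error 0.30), or 7.94-fold. Leaving out each library in turn moved that value only between 2.75 and 3.20.

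*Il10rb* lies on the plus strand of chromosome 16 from 91406164 to 91425834 and has 5 annotated transcripts. The Naive libraries held 39.8 and 38.5 CPM of *Il10rb*, and the Th17 libraries 44.8 and 49.7 CPM. The Th1 libraries held 42.9 and 71.6 CPM. The highest Th1 library exceeded all others, while the other Th1 library lay below both Th17 libraries, so that Th1 and Th17 overlapped.

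No difference in *Il10rb* passed edgeR's quasi-likelihood test, in which a DEG was called at a Benjamini-Hochberg adjusted p under 0.01 with an absolute log2FC above 1. The log2FC in Th17 compared with Naive was 0.27 (95% interval -0.40 to 0.94, adjusted p = 0.55 by edgeR). In Th1 compared with Naive it was 0.55 (95% interval -0.12 to 1.21, adjusted p = 0.26 by edgeR). Between Th1 and Th17 it was 0.27 (95% interval -0.39 to 0.94, adjusted p = 0.54 by edgeR). These intervals leave room for a change in either direction, and for a rise of more than 2-fold only in Th1 compared with Naive. Without Th1 replicate 2, the difference between Th1 and Th17 turned to -0.13, and that between Th1 and Naive was 0.14. With library size alone as the scaling, Th1 replicate 1 had 40.1 CPM of *Il10rb*, below the 41.8 CPM of each Naive library.

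**Figure D1:**
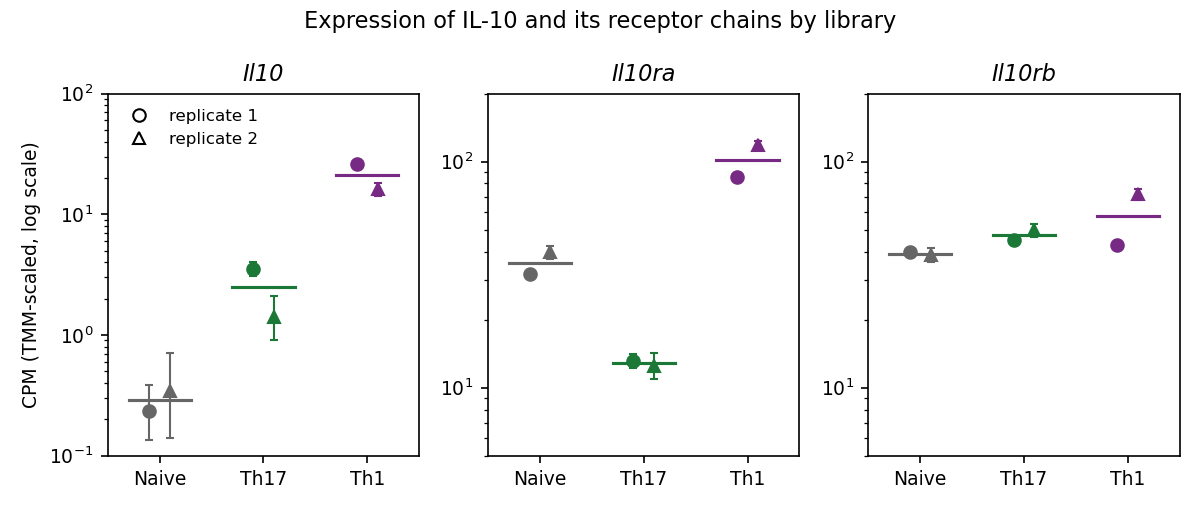
CPM of *Il10*, *Il10ra* and *Il10rb* (log scale, a different range for *Il10*) in the 2 libraries of each cell type; points are libraries with exact Poisson 95% intervals of their counts, and horizontal lines are group means. *Il10* was lowest in Naive at 0.235 and 0.347 CPM and highest in Th1 at 26.2 and 16.1 CPM, *Il10ra* was lowest in Th17 at 13.1 and 12.5 CPM, and *Il10rb* lay between 38.5 and 71.6 CPM.

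To set the members beside each other, CPM was divided by the length in kb of the longest protein-coding transcript, which gives RPKM with the scaled total as the denominator. On this scale *Il10ra* had 24.4 and 33.8 RPKM in Th1, 3.75 and 3.57 in Th17 and 9.09 and 11.3 in Naive. *Il10rb* had 23.2 and 38.7 RPKM in Th1, 24.2 and 26.9 in Th17 and 21.5 and 20.8 in Naive. *Il10* reached 20.0 and 12.3 RPKM in Th1, below *Il10ra* in the same library. With the length of all annotated exons, *Il10rb* had 11.3 and 18.8 RPKM in Th1. The order of *Il10* against *Il10rb* thus depended on the length used in Th1 replicate 1. In Th1 replicate 2, *Il10* was below *Il10rb* with either length.

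The RPKM of *Il10ra* relative to *Il10rb* was 1.05 and 0.874 in Th1, 0.155 and 0.133 in Th17 and 0.423 and 0.544 in Naive. Because a ratio within a library does not depend on the scaling of the library, the Th1 to Th17 contrast of this ratio, from 5.65-fold to 7.92-fold over the library pairs, is one of relative chain abundance. It comes mainly from *Il10ra*, the chain that chose the set, and so carries no test. The level of the ratio depends on the transcript length assumed for *Il10rb*, and with all annotated exons counted it was 2.17 and 1.80 in Th1, 0.318 and 0.274 in Th17 and 0.870 and 1.12 in Naive. The order of the cell types does not depend on that choice, since it multiplies every library by the same factor.

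**Figure D2:**
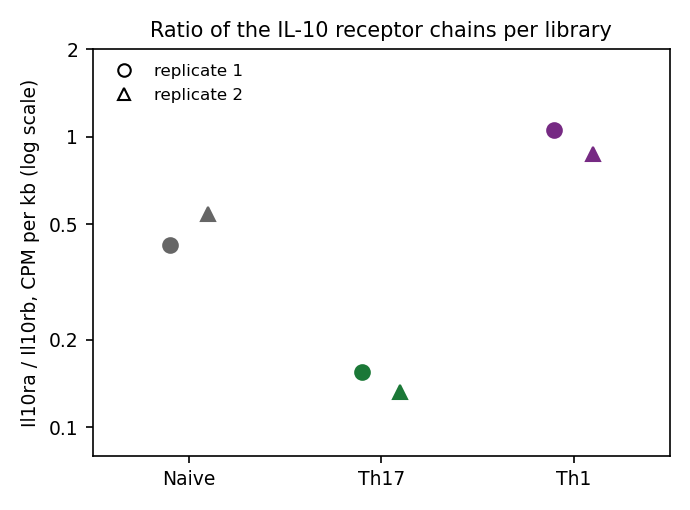
Ratio of *Il10ra* to *Il10rb* in CPM per kb of the longest protein-coding transcript (log scale) for each library; circles are replicate 1 and triangles replicate 2. Th17 lay at 0.155 and 0.133, Naive at 0.423 and 0.544 and Th1 at 1.05 and 0.874, without overlap.

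Cells other than T helper cells can contribute RNA of all 3 members. The summed CPM of 11 macrophage and dendritic cell genes was 300.8 and 898 in the Th17 replicates, 49.7 and 26.4 for Naive and 22.3 and 25.1 for Th1, where *C1qa* was at 0. The 8 B cell genes summed to 27.9 and 21.0 CPM in Th17, 5.75 and 4.74 in Th1 and 16.1 and 12.6 in Naive. The sums of both lists were thus highest in Th17 and lowest in Th1. Within Th17, the macrophage and dendritic cell sum was higher in replicate 2. What these cells contributed to the members' RNA was not tested.

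Regulatory T cells are a further source of IL-10. *Foxp3*, their defining transcription factor, had 6.94 and 13.2 CPM in Th1, 19.2 and 12.7 in Th17 and 39.2 and 69.9 in Naive. The other 4 genes of the regulatory T cell list include *Il2ra* and *Ctla4*, which activated T cells also express, and the sum of the 5 genes was 1275 and 1166 CPM in Th1, 734.5 and 625 in Th17 and 200.4 and 317.5 in Naive. The mast cell and basophil list of 7 genes summed to 225 and 441 CPM in Th17, 78.8 and 65.7 in Th1 and 171 and 52.0 in Naive. Of the 6 erythroid genes, *Hba-a1* and *Hbb-bs* were at 0 in all libraries, and the sum was 573 and 103 CPM in Naive and at most 2.15 CPM elsewhere. The 6 genes of CD8 T cells and NK cells summed to between 32.7 and 65.8 CPM in all libraries. The part of these cells in the members' values was not tested.

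Genes around IL-10 were read from 7 lists, which cover its ligand family, receptor chains, signalling, responses, regulators, the receptors for signals that induce it and genes of IL-10-producing type 1 regulatory cells. Without *Il10* and *Il10ra* the lists hold 66 genes, of which 59 were tested. In Th17 compared with Naive, 15 genes (25.4%) were called higher and 4 (6.78%) lower, against 4.01% and 1.43% of all genes tested. For Th1 against Naive, 22 (37.3%) were higher and 4 (6.78%) lower, against 4.64% and 2.81%. Between the effector cells, 10 (16.9%) were higher and 5 (8.47%) lower in Th1 than in Th17, against 2.70% and 2.83%.

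The median log2FCs over the 59 genes were 0.24, 0.95 and 0.50 in these comparisons, where those of all genes tested were -0.02, -0.02 and -0.03. Setting *Il24* and *Il1rn*, which had 3 reads or fewer in each Naive library, at the bound that 3 reads per library give left these medians the same. The lists were written with results of these data known, and every pair of comparisons shares libraries. The share of all genes called with a library left out is not given here. Without Naive replicate 1, 14 genes were called in Th1 compared with Naive in place of 26, and 17 without Naive replicate 2 or either Th1 library. Between Th1 and Th17, 7 were called without Th17 replicate 2 and 9 without Th17 replicate 1 or Th1 replicate 2, in place of 15.

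Among the ligands of the family, *Il22* was the counterpart of *Il10*. IL-22 acts on epithelial cells and uses the same IL-10Rβ chain. *Il22* had 635 and 646 CPM in Th17, against 0.557 and 0 in Th1, where replicate 2 held no read, and 0.323 and 0.149 in Naive. It rose in Th17 compared with Naive (log2FC 11.21, standard error 0.75, adjusted p = 4.7e-05 by edgeR) and was lower in Th1 than in Th17 (log2FC -10.68, standard error 0.73, adjusted p = 7.8e-05 by edgeR). Both calls held with each library left out and under each of the other alternatives that gave a value. The log2FC between Th1 and Th17 ranged from -17.58 without Th1 replicate 1, which leaves the library with no read, to -10.15 without Th1 replicate 2. Th1 thus carried the higher *Il10* and Th17 the higher *Il22*, while the shared chain *Il10rb* was detected in both.

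*Il24* encodes a further cytokine of the family and is a neighbour of *Il10* on chromosome 1. It had 3.50 and 3.28 CPM in Th17 and 0.696 and 0.253 CPM in Th1, with 1 and 0 reads in Naive. Computed against 3 reads in each Naive library, *Il24* was at least 35.2-fold higher in Th17 (adjusted p = 0.00086 by edgeR) and at least 4.93-fold higher in Th1 (adjusted p = 0.0072 by edgeR). The call in Th1 was lost with scaling by library size alone, after thinning (every library drawn down at random to the depth of the smallest) and without any single library but Th1 replicate 2. *Il24* was lower in Th1 than in Th17 by a log2FC of -2.72, a difference that edgeR did not call (adjusted p = 0.021) and DESeq2 called (adjusted p = 0.0028). *Il19* was too low to be tested, with at most 0.247 CPM, and *Il20* and the type III interferon genes *Ifnl2* and *Ifnl3* had no read in any library.

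The class II cytokine receptor chains are the family to which both IL-10 receptor chains belong. Apart from *Il10ra*, 7 of the 10 listed were tested. *Ifngr1*, the ligand-binding chain of the IFN-γ receptor, had 609 and 915 CPM in Th1, 280 and 347 in Th17 and 144 and 103 in Naive, and it rose in Th1 compared with Naive (log2FC 2.62, standard error 0.34, adjusted p = 0.00093 by edgeR). Its partner *Ifngr2* had 2.60 and 7.21 CPM in Th1, 35.8 and 43.0 in Th17 and 35.3 and 49.7 in Naive. *Ifngr2* fell in Th1 compared with Naive (log2FC -3.16, standard error 0.47, adjusted p = 0.0020 by edgeR) and was lower than in Th17 (log2FC -3.05, adjusted p = 0.0030 by edgeR). The latter call was lost without either Th17 library, and its log2FC was -2.45 or less over all alternatives. So in Th1 the accessory chain of the IFN-γ receptor was low, whereas *Il10rb*, the accessory chain of the IL-10 receptor, was not.

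Chains that pair with IL-10Rβ in other receptors were scarce. *Ifnlr1*, the specific chain of the type III interferon receptor, had 1.15 and 1.64 CPM in Th17 and at most 0.0880 CPM in the other libraries. It was called in Th17 compared with Naive (log2FC 4.14, standard error 0.78, adjusted p = 0.0079 by edgeR) and lower in Th1 than in Th17 (log2FC -4.41, adjusted p = 0.0074 by edgeR). Those calls rest on few reads. The former was lost with library size alone, after thinning, with DESeq2 and the replicate block and without any single library, and the latter after thinning and without any single Th17 or Th1 library. *Il22ra1*, the specific chain for IL-22, was at most 0.113 CPM and was not tested, as were *Il20ra* and the soluble decoy *Il22ra2*, at most 0.176 and 0.132 CPM.

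*Il20rb*, a chain of the receptors for IL-19, IL-20 and IL-24, had 6.91 and 8.03 CPM in Th1, 2.80 and 3.17 in Th17 and 1.95 and 1.78 in Naive. Its log2FC of 1.99 in Th1 compared with Naive narrowly missed the call by edgeR (adjusted p = 0.011) and passed by DESeq2 (adjusted p = 1.8e-05). The chains of the type I interferon receptor were not called in any comparison. *Ifnar1* ranged from 93.7 to 201 CPM and *Ifnar2* from 50.6 to 83.1 CPM.

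**Figure D3:**
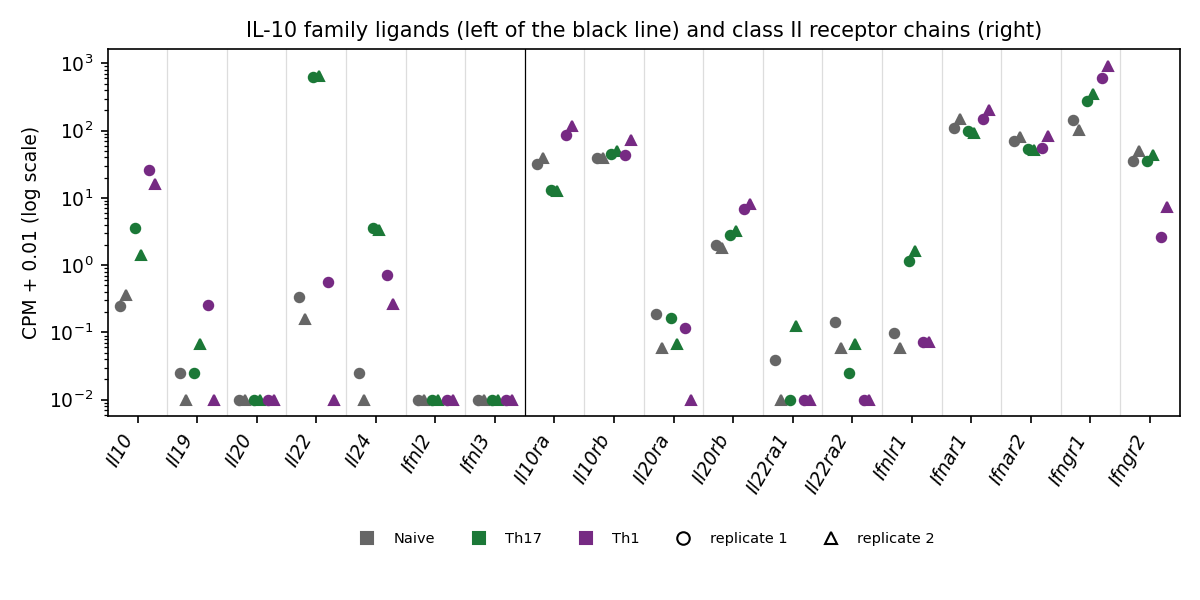
CPM plus 0.01 (log scale) of the IL-10 family ligands, left of the black line, and the class II cytokine receptor chains, right of it; colours are cell types, circles replicate 1 and triangles replicate 2, and points at the bottom have no read. *Il10* was highest in Th1, *Il22* in Th17 at 635 and 646 CPM, and *Ifngr2* was lowest in Th1 at 2.60 and 7.21 CPM.

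Downstream of the receptor, the genes for its kinases and for STAT3 were not called by edgeR in any comparison. *Jak1*, whose product binds IL-10Rα, had 592 and 876 CPM in Th1, 488 and 431 in Th17 and 651 and 967 in Naive. *Tyk2*, whose product binds IL-10Rβ, ranged from 43.2 CPM in Th17 to 147 CPM in Naive, a difference that DESeq2 called (log2FC -1.15, adjusted p = 0.0083). *Stat3*, the main mediator of IL-10, ranged from 183 to 369 CPM, and its log2FCs were 0.32, 0.67 and 0.35 in Th17 compared with Naive, Th1 compared with Naive and Th1 compared with Th17.

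Among the suppressors of cytokine signalling, *Socs3* and *Socs1* were called. *Socs3*, a feedback inhibitor induced by STAT3, had 349 and 495 CPM in Th1, 692 and 510.1 in Th17 and 81.5 and 131 in Naive. It rose in Th17 (log2FC 2.50, standard error 0.36, adjusted p = 0.0018 by edgeR) and in Th1 (1.99, standard error 0.35, adjusted p = 0.0043 by edgeR) compared with Naive. *Socs1*, an inhibitor of interferon signalling, had 209 and 312 CPM in Th1, 80.9 and 64.1 in Th17 and 32.3 and 44.9 in Naive, and rose in Th1 compared with Naive (log2FC 2.75, standard error 0.32, adjusted p = 0.00051 by edgeR) and with Th17 (1.84, adjusted p = 0.0045 by edgeR). Other cytokines of these cultures, IL-6 and IL-23 among them, also signal through STAT3, and the RNA does not separate their part from that of IL-10. The call of *Socs1* in Th1 compared with Naive held without each library. That compared with Th17 was lost with library size alone and without Th1 replicate 2 or either Th17 library, at a log2FC of 1.54 or more. *Socs3* lost its call without Naive replicate 1 in either comparison, without Th17 replicate 1 in Th17, and with library size alone or without Th1 replicate 2 in Th1, where its log2FC was 1.68 or more.

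A list of 10 genes that respond to IL-10, mostly known from macrophages, had 5 genes higher in Th17 compared with Naive by edgeR, and 3 higher and 1 lower in Th1. The shares of all genes tested were 4.01% higher in Th17, and 4.64% higher and 2.81% lower in Th1. *Nfil3*, a leucine zipper transcription factor, rose in Th17 (log2FC 2.80) and in Th1 (3.30), and *Bcl3*, an atypical IκB protein, by 2.33 and 2.34, with adjusted p between 0.00027 and 0.0045 by edgeR. *Ddit4*, an inhibitor of mTORC1, fell in Th1 (log2FC -1.71, adjusted p = 0.0048 by edgeR). *Bcl3* lost its calls without Naive replicate 1, without Th17 replicate 1 in Th17 and with library size alone or without Th1 replicate 2 in Th1, and *Ddit4* without Naive replicate 1 or either Th1 library. Their log2FC stayed at 1.74 or more and -1.48 or less over the alternatives.

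*Il1rn*, which encodes the IL-1 receptor antagonist, and *Hmox1*, heme oxygenase 1, rose in Th17. *Il1rn* had 7.28 and 21.8 CPM there against 1 and 3 reads in Naive, at least 151-fold (adjusted p = 0.00093 by edgeR), and *Hmox1* had 8.55 and 18.3 CPM (log2FC 3.04, adjusted p = 0.0052 by edgeR). Both were higher in Th17 replicate 2, as were the summed macrophage and dendritic cell genes given above, whose part in these values was not tested. Between Th1 and Th17 only *Il1rn* of the list was called, lower in Th1 (log2FC -5.65, adjusted p = 0.0025 by edgeR), and that call was lost without Th17 replicate 2 or Th1 replicate 2, at a log2FC of -4.69 or less. *Hmox1* lost its call without Naive replicate 1 or Th17 replicate 2, at 2.39 or more. The list median between Th1 and Th17 was 0.15, and 2.83% of all genes tested were lower in Th1 there.

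The list of regulators of *Il10* in CD4 T cells had 17 genes, all tested. In Th1 compared with Th17, where 2.70% of all genes tested were higher, 4 were higher by edgeR, with a list median of 0.80. They were *Tbx21* (log2FC 5.31), which encodes T-bet, *Jun* (4.67), a subunit of AP-1, *Gata3* (3.71) and *Bhlhe40* (1.94), which encodes a repressor of *Il10*. Their adjusted p-values were between 7.5e-05 and 0.0019 by edgeR. *Bhlhe40* had 376 and 507 CPM in Th1, 116 and 114 in Th17 and 8.76 and 8.42 in Naive, the same order of groups as *Il10*, although its product is known to restrain *Il10*. Its call between Th1 and Th17 was lost without Th1 replicate 2 or either Th17 library, at a log2FC of 1.72 or more.

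Compared with Naive, 3 regulators were higher and 3 lower in Th17, and 7 were higher and 1 lower in Th1. Of all genes tested, 4.01% were higher and 1.43% lower in Th17, and 4.64% higher and 2.81% lower in Th1. *Prdm1*, which encodes Blimp-1, an activator of *Il10*, had 32.7 and 36.5 CPM in Th1, 12.0 and 4.86 in Th17 and 5.46 and 9.16 in Naive, and it rose in Th1 compared with Naive (log2FC 2.25, standard error 0.46, adjusted p = 0.0091 by edgeR). That call was lost with library size alone, after thinning and without any single Naive or Th1 library, at 1.91 or more. Between Th1 and Th17 its log2FC was 2.02, which edgeR did not call (adjusted p = 0.017) and DESeq2 called (adjusted p = 0.00034). *Prdm1* and *Maf* were named here after their values were seen. *Maf*, which encodes the *Il10* activator c-Maf, was not called in any comparison, and its log2FC between Th1 and Th17 was -0.89 (adjusted p = 0.20 by edgeR). *Maf* also differed between replicates. Replicate 1 held 2.38 times the *Maf* CPM of replicate 2 in Th17 and 2.28 times in Th1, but 0.929 times in Naive. This pattern was not particular to *Maf*. For *Il12rb1*, from the list of receptors below, the ratios were 2.45 in Th17, 1.69 in Th1 and 0.918 in Naive. In Th17, *Prdm1* was 2.46 times as high in replicate 1, and in Th1 0.897 times. With 2 replicates, these ratios describe the libraries and were not tested.

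The receptors for signals that induce *Il10* numbered 9. In Th1 compared with Th17, where 2.70% of all genes tested were higher, 2 of these receptors were higher by edgeR. *Il12rb2*, the inducible chain of the IL-12 receptor, had 338 and 281 CPM in Th1, 11.1 and 6.67 CPM in Th17 and 3.82 and 3.76 CPM in Naive, with 5.11 as the log2FC between Th1 and Th17 (adjusted p = 7.8e-05 by edgeR). *Il6st*, the gp130 chain shared by the receptors for IL-6 and IL-27, had 556 and 655 CPM in Th1, 85.6 and 76.4 CPM in Th17 and 155 and 250.4 CPM in Naive, a log2FC of 2.90 between Th1 and Th17 (adjusted p = 0.00061 by edgeR). Both calls held with each library left out.

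Compared with Naive, 1 of these receptors rose in Th17, *Icos*, a costimulatory receptor (log2FC 1.91, adjusted p = 0.0028 by edgeR), a call lost without Naive replicate 1 or Th17 replicate 1, at 1.75 or more. In Th1, 4 rose and 1 fell. Of all genes tested, 4.01% rose in Th17, and 4.64% rose and 2.81% fell in Th1. *Il12rb2* rose by 6.35, *Icos* by 2.63 and *Il12rb1* by 2.05 on the log2 scale, and *Il6ra*, the specific chain of the IL-6 receptor, fell by 2.02, with adjusted p between 1.6e-05 and 0.0097 by edgeR. The specific chain for IL-6 was thus low in Th1 where its partner gp130 was high. The call for *Il12rb1* was lost with library size alone and without either Naive library or Th1 replicate 1, and that for *Il6ra* without Naive replicate 2 or Th1 replicate 1, where the log2FCs were at least 1.66 and at most -1.69.

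Type 1 regulatory cells are CD4 T cells that make IL-10 without *Foxp3*. Of 11 genes linked to them, 3 were higher and 1 lower in Th1 than in Th17 by edgeR, against 2.70% and 2.83% of all genes tested. *Eomes*, a T-box factor, had 12.3 and 11.9 CPM in Th1, 1.12 and 0.679 CPM in Th17 and 17.4 and 23.3 CPM in Naive, and was higher in Th1 than in Th17 (log2FC 3.70, adjusted p = 0.00058 by edgeR) but lower in Th17 than in Naive (-4.44, adjusted p = 0.00022 by edgeR). *Lag3*, an inhibitory receptor, had 36.2 and 51.8 CPM in Th1 and between 5.83 and 10.9 CPM in the other libraries (log2FC 2.56 compared with Th17, adjusted p = 0.0017 by edgeR). *Ifng*, the Th1 cytokine, was higher by 1.56 on the log2 scale (adjusted p = 0.0045 by edgeR), and *Il21* was lower (-1.64, adjusted p = 0.0077 by edgeR). *Il21* and *Ifng* lost these calls without any single Th17 or Th1 library, at a log2FC of -1.39 or less and 1.34 or more, and *Lag3* without Th17 replicate 2. That of *Ifng* was also lost with library size alone.

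Compared with Naive, 4 genes of that list rose and 1 fell in Th17, and 6 rose in Th1. Among all genes tested, 4.01% rose and 1.43% fell in Th17, and 4.64% rose in Th1. The 2 largest rises in Th1 were those of *Gzmb*, granzyme B (log2FC 6.34), and *Ifng* (5.19), and in Th17 those of *Gzmb* (5.41) and *Il21* (4.59), each with an adjusted p of 0.00025 or less by edgeR. *Ctla4* rose in both by 2.87 and 2.88, and between Th1 and Th17 it differed by 0.01 (adjusted p = 0.98 by edgeR). The calls in Th1 compared with Naive did not cover the whole list, since *Tigit*, *Pdcd1*, *Cd226*, *Havcr2* and *Eomes* were not called. Of these, *Havcr2* had a log2FC of 1.99 (adjusted p = 0.054 by edgeR), and the others lay between -1.14 and -0.07.

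**Figure D4:**
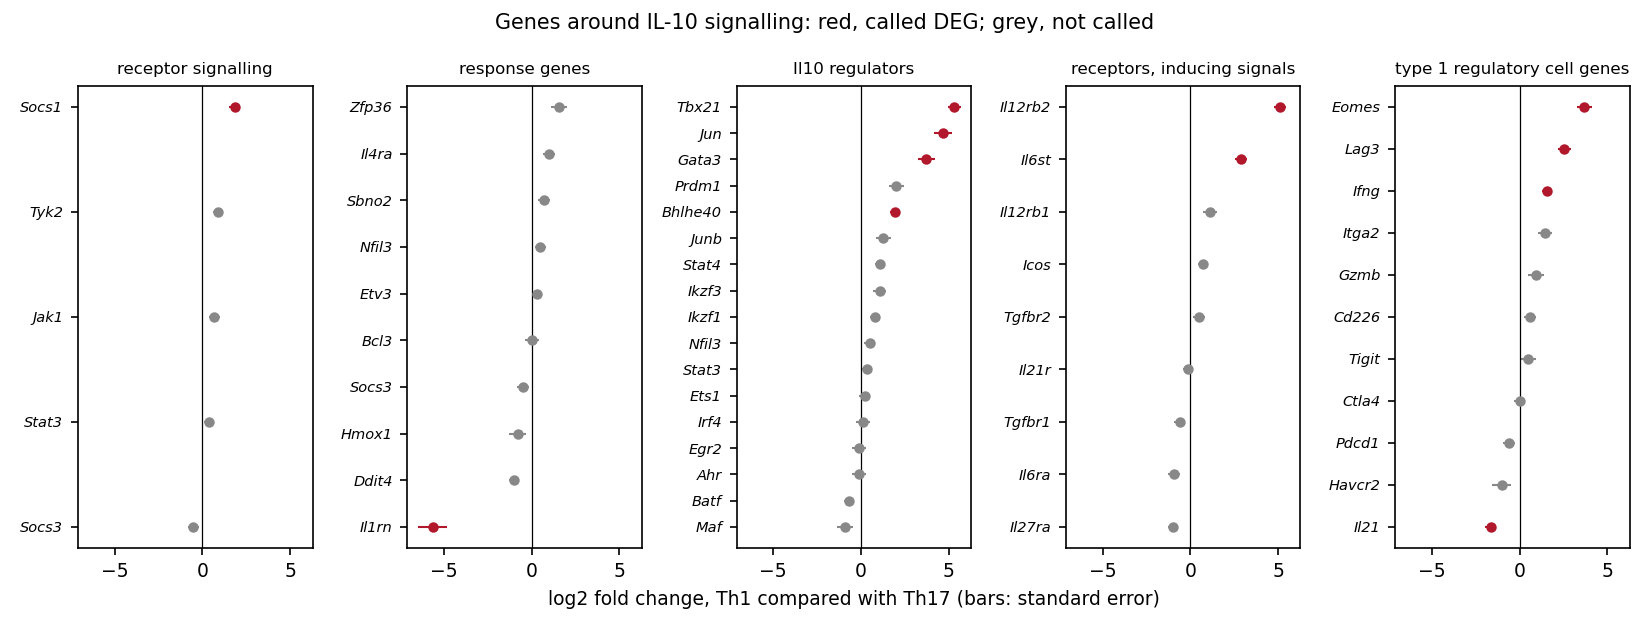
Log2 fold change in Th1 compared with Th17 (bars: standard error) of genes tested in 5 lists around IL-10; red points were called by edgeR and grey points were not. Among the regulators, *Tbx21* lay at 5.31 and *Maf* at -0.89, and among the receptors *Il12rb2* lay at 5.11.

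Genes within 250 kb of each member were read to see whether neighbours moved with them. Around *Il10*, 6 of 10 genes were tested. The nearest on either side were *Mapkapk2*, which encodes a kinase that stabilizes cytokine mRNA, at 28.7 kb, and *Il19* at 74.4 kb. *Mapkapk2* had 297 and 280.0 CPM in Th1, 233 and 194 in Th17 and 109 and 114 in Naive, and it rose in Th1 compared with Naive (log2FC 1.37, standard error 0.26, adjusted p = 0.0062 by edgeR). The call was lost with library size alone, with only the 4 libraries compared and without any single library, at 1.12 or more over the alternatives, and its difference between Th1 and Th17 of 0.43 was not called. *Il24*, at 132 kb, was higher in Th17 than in Th1, opposite to *Il10*.

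Around *Il10ra*, 6 of 14 genes were tested. *Tmprss13*, a membrane serine protease gene at 49.8 kb, had 3.68 and 14.3 CPM in Th1, 0.245 and 0.0566 CPM in Th17 and 2.64 and 2.08 CPM in Naive, with a log2FC of 5.59 in Th1 compared with Th17 (standard error 0.84, adjusted p = 0.0025 by edgeR). That call was lost without either Th17 library, at 4.36 or more. *BC049352*, 2.47 kb from *Il10ra*, was close to the limit of detection, with 4 and 0 reads in Th17, and its log2FC of 3.89 was not called (adjusted p = 0.030). Both had the order Th17, Naive, Th1 in their means, as *Il10ra* did, and the Naive and Th1 libraries of *BC049352* overlapped. *Cd3e* and *Mpzl3* had that order too, and *Mpzl3* was not called in any comparison. Compared with Naive, *Tmprss13* was not called in Th17 (adjusted p = 0.015 by edgeR) or Th1 (adjusted p = 0.085 by edgeR). *Mpzl2*, an adhesion molecule gene at 199.8 kb, had 4.39 and 4.74 CPM in Th1 and 0.597 and 0.339 CPM in Th17 (log2FC 3.21, adjusted p = 0.0069 by edgeR), with 1 read in each Naive library, so that Th1 was at least 47.4-fold higher than Naive. The former call was lost with library size alone, after thinning and without any single Th17 or Th1 library, at 2.73 or more. *Cd3e*, 244 kb away, was not called in any comparison.

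*Il10rb* lies in a cluster of receptor genes, and 9 of 12 neighbours were tested. *Ifnar2* ends 0.568 kb before it, and *A930006K02Rik* is the nearest gene on the other side. Only *Ifngr2*, described above, was called by edgeR, lower in Th1 compared with Naive and with Th17. In these comparisons 2.81% and 2.83% of all genes tested were lower. *Il10rb* overlaps the readthrough gene *Gm21970* on its strand, which was not analysed here, and *Il10ra* overlaps *Gm20612*, also not analysed here, and *Mir7086*, which had at most 2 reads. How reads shared with these genes were assigned could alter the counts and was not tested.

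**Figure D5:**
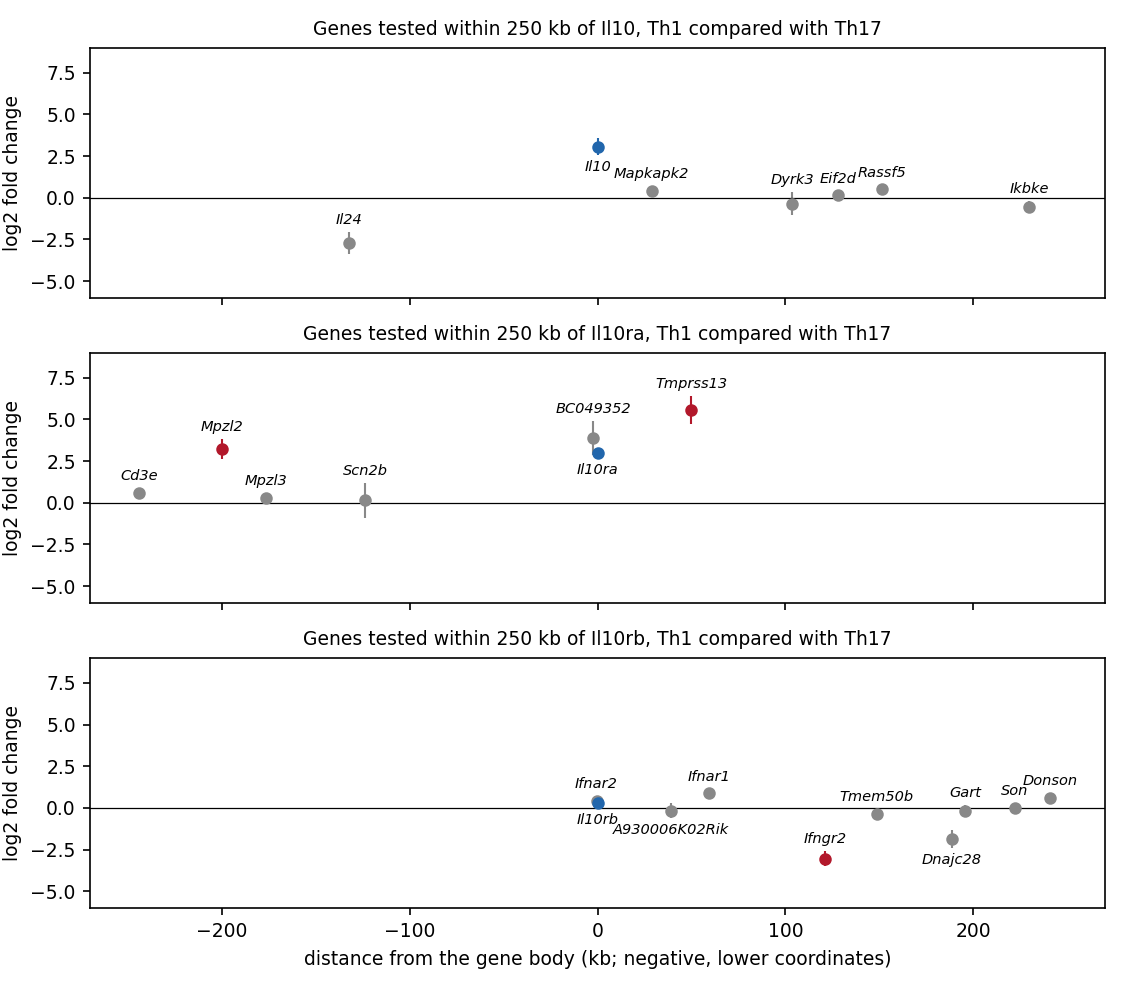
Log2 fold change in Th1 compared with Th17 (bars: standard error) of genes tested within 250 kb of *Il10*, *Il10ra* and *Il10rb*, by their distance in kb from the gene body; blue is the member, red genes were called by edgeR and grey genes were not. The called genes were *Mpzl2* at 3.21 and *Tmprss13* at 5.59 near *Il10ra*, and *Ifngr2* at -3.05 near *Il10rb*.

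The genes most like each member were taken by the smallest Euclidean distance between centred log2 CPM profiles over the 6 libraries, which is a description of points that share libraries and depth. For *Il10* they were *Ifi204*, *Mpzl2*, *Gad2*, *Rufy4* and *Insrr*. *Ifi204*, an interferon-inducible gene, lay at a distance of 0.498, with 73.8 and 33.2 CPM in Th1, 7.11 and 2.66 in Th17 and 0.572 and 0.693 in Naive. It shared both the order of the cell types and the replicate difference of *Il10*, with replicate 1 at 2.68 times replicate 2 in Th17 and 2.22 times in Th1. *Gad2* had no read in Naive, and *Mpzl2* and *Insrr* had at most 2 reads in a Naive library.

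For *Il10ra* the nearest were *Scd4*, *Arl4c*, *Il6st*, *Pdzd2* and *Mapk8ip2*. *Arl4c*, a small GTPase gene, was abundant, with 975 and 1355 CPM in Th1, 185 and 165 in Th17 and 457 and 569.8 in Naive, at a distance of 0.350. *Il6st*, at 0.371, is the gp130 chain described above, and so 2 cytokine receptor chains had nearly the same profile. *Scd4* and *Mapk8ip2* were below 1 CPM throughout. For *Il10rb* they were *Adipor1*, *Kiz*, *E430018J23Rik*, *Chmp1b* and *Mcl1*, with distances from 0.138 to 0.201. All 5 were higher in Th1 replicate 2 than in the other libraries, the pattern of *Il10rb* itself.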

How the data were processed

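RNA-Seq libraries were made by Smart-seq2 from poly(A) RNA. The authors aligned reads to mm10 with HISAT2 2.2.1 and counted them per gene with HTSeq 0.13.5; the deposited values are raw counts. Removal of duplicates and default HTSeq settings are given in the methods, whereas the supplementary code has no such removal and a reverse-strand option, so strand assignment is uncertain. The analysis used edgeR 4.0.16 (filterByExpr, TMM, quasi-likelihood test, cell type as the only term, all 6 libraries) and limma 3.58.1 under R 4.3.3. Of the genes, 6377 had no count. Genes were called DEGs at a Benjamini-Hochberg adjusted p under 0.01 with more than a 2-fold change. Log2 CPM profiles used a prior count of 2, and 3 counts were taken as the limit of detection. With 2 libraries against 2, an exact permutation test cannot give a two-sided p under 0.333, and p-values measure the spread between these replicates. Sequenced reads are not independent molecules, so intervals cover counting error only.

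The members and lists were chosen with earlier results of these data known. Named genes are the members, the ligands, receptor chains and signalling genes, up to 4 called genes with the largest change per other list and comparison, the nearest and the called neighbours, and the 5 most similar profiles. Gene positions come from GENCODE vM21 and RefSeq on GRCm38. Alternatives were DESeq2 1.42.0, library size alone, RLE factors, other filters, a replicate block, only the 4 libraries compared, thinning, an adjusted p under 0.05 and leaving out each library. A second length for *Il10rb* was chosen after seeing the data. Chromatin data were not used here. Some genes that meet the rule for named genes are not reported here, but remain in the counts over lists.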

Additional observations from a re-analysis of the deposited data

Results flagged for a closer look

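For 5 genes of the members and lists, the log2 fold change from Naive was below -1 in Th17 and above 1 in Th1. Among the members this held for *Il10ra*, with log2 fold changes of -1.48 from Naive to Th17 and 1.51 from Naive to Th1, and the difference between these was not tested because it chose the gene. In the lists it held for *Gata3* (-2.36 and 1.35), *Tbx21* (-2.57 and 2.75), *Jun* (-1.99 and 2.68) and *Il6st* (-1.32 and 1.58). Only for *Tbx21* did edgeR call both changes. By edgeR, *Gata3* was not called in Th1 (adjusted p = 0.06), nor were *Jun* (0.016) and *Il6st* (0.02) in Th17. These 4 list genes were picked by changes of opposite sign. Their Th1 to Th17 difference, which edgeR called in each, follows from that choice and adds no support. Both changes are taken from the same Naive libraries.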

How the results depend on the processing

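*Il10* and *Il10ra* kept the direction of each log2 fold change under every alternative that gave a value, and *Il10* gave none with a minimum of 10 counts in every library. Thinned to the smallest library, *Il10* in Th1 compared with Naive was 5.41. *Il10rb* was not called under any alternative. Its log2 fold change in Th1 compared with Th17 ranged from -0.13 to 0.59 with a library left out, and it was reversed, at -0.13, without Th1 replicate 2.

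Of the list genes, 30 in place of 19 were called in Th17 compared with Naive without the filter on low counts. The share of all genes called under each alternative is not given here. The counts of list genes therefore do not separate a change in the lists from one in calling as a whole. In Th1 compared with Naive, 16 in place of 26 were called with library size alone, and 14 to 23 with a library left out. In Th1 compared with Th17, 24 in place of 15 were called without the filter, 24 with DESeq2, 23 at an adjusted p under 0.05, and 7 to 17 with a library left out. Each library left out leaves its cell type with 1 library, assumed to vary like the others. Ranked by Pearson's r, 1, 3 and 2 of the 5 genes most like *Il10*, *Il10ra* and *Il10rb* were again chosen. With all annotated exons as the length, the mean *Il10ra* to *Il10rb* ratio was 0.995 in Naive, 0.296 in Th17 and 1.98 in Th1. The cause of these changes was not tested beyond what each setting alters.

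Replicate numbers do not pair the libraries by the labels, and deviations of same-numbered libraries correlated at -0.231, 0.168 and 0.0766 across genes. With the replicate number as a block, 22, 30 and 16 list genes were called, and *Il10rb* was not called (log2 fold change 0.25 in Th1 compared with Th17). Depth limits *Il10* in Naive, *Il24*, *Ifnlr1* and *Mpzl2*, and 2 replicates limit every comparison.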
